A study of Saccharomyces cerevisiae with 16 samples.

Results

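GCN4 and 52 genes of amino acid biosynthesis were followed through a CaCl2 time course in budding yeast cells that lacked both Hog1 and Crz1. The 53 genes were taken by systematic name from the 7126 features of the count table and cover the arginine, histidine, leucine, isoleucine and valine, lysine, aromatic, threonine, serine, asparagine, and glutamine and glutamate pathways. Sulphur amino acid genes were not included, nor were HIS3 and LEU2, which serve as markers in the strain. All 53 genes passed the filter on low counts, and the lowest count of any of them in any library was 95.

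The libraries fall into 8 groups of 2 biological replicates. Cells were pre-treated for 15 min with FK506 at 1 μg/ml, which inhibits the phosphatase calcineurin (CN), or with ET buffer, the vehicle, and then received 200 mM CaCl2. FK506-treated cells (FK506 cells) and buffer-treated cells (ET cells) were each collected at 0, 10, 30 and 60 min. The sample titles give the crz1 and hog1 deletions for all 8 groups and name no strain. The strain was taken to be YJB622, from several crz1∆ hog1∆ strains that the paper lists. YJB622 is a MATa strain of the BY4741 background with crz1∆::KanMx and hog1∆::LEU2. It also carries an HA-tagged Hcm1 marked with HIS3, and the ura3, leu2, his3 and met15 deletions of that background. Cells were grown in synthetic complete medium with dextrose, with ammonium chloride as the nitrogen source. The deletions of the kinase Hog1 and the CN-activated transcription factor Crz1 were thus shared by FK506 and ET cells alike, and no strain with wild-type HOG1 or with a CN mutation was analysed here. Because the samples are bulk cultures, fewer cells with an mRNA and less of it per cell cannot be told apart. The part of CN and any other action of FK506 cannot be told apart in this design.

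Amino acid synthesis in yeast is under general amino acid control. Uncharged tRNA activates the kinase Gcn2, which phosphorylates the translation factor eIF2, and this raises translation of the GCN4 mRNA through short upstream reading frames. The Gcn4 protein then binds upstream of amino acid synthesis genes in many pathways at once. Single pathways have activators of their own, such as Leu3 for branched-chain amino acids, Lys14 for lysine, the Arg80 and Arg81 proteins for arginine, and Bas1 with Pho2 for histidine. Because Gcn4 is set largely by translation and protein turnover, the mRNA values below are not a measure of Gcn4 protein.

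The stretches that carry the Gcn4 motif TGACTCA upstream of genes with contrasting time courses are shown here, since the same letters stand before genes that moved in opposite directions. Each is 30 bases of the R64 genome (sacCer3) read 5′ to 3′ on the strand of the gene, with the motif or its reverse complement TGAGTCA in capitals.
LEU9 (chrXV:522759-522788, + strand): gtcgtagtgaaTGACTCAtatttttccatc
ARO4 (chrII:718288-718317, - strand): ttactgcgaaaTGACTCAacgatgaaatga
ASN1 (chrXVI:822382-822411, + strand): catgtaacattTGACTCAttctgtaaactg
ARG1 (chrXV:218855-218884, + strand): tgattttttagTGACTCAtgtcgcatttgg
HIS5 (chrIX:142715-142744, + strand): cttggatctgtTGACTCActtcaattgatg
LYS1 (chrIX:420968-420997, - strand): tactaagtcgaTGAGTCAaaaaagactctt
TGACTCA was present on either strand in the 500 bases before the start codon of 28 of the 53 genes (52.8%), against 4% of the 6000 promoters of that length. The shorter TGACTC, which is contained in it and is also bound by Bas1, was present in 38 of the 53 (71.7%) and in 12.7% of all promoters. GATAAG, the motif of the GATA factors of nitrogen control, was present in 18 (34%) against 22.8% of all promoters, and the Msn2/Msn4 motif AGGGG in 16 (30.2%) against 34.1%. A match describes the sequence and does not show binding. The 500 bases before the start codon of GCN4 held none of these motifs, and sequence further upstream was not examined.

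The Leu3 motif CCGGNNCCGG was rarer, at 0.267% of all promoters, and stood before 5 of the 53 genes (9.43%). All 5 had a positive FK506 minus ET difference at 60 min with an adjusted p under 0.05, as did 36 of the 53 genes. The share over all genes tested was 27.9%. They are shown here, and capitals again mark the motif.
LEU1 (chrVII:478850-478879, - strand): aacgaaaattCCGGGACCGGcgaaatttgc
ILV2 (chrXIII:483606-483635, + strand): ccggagcctgCCGGTACCGGcttggcttca
ILV5 (chrXII:839611-839640, - strand): gcggtctcctCCGGTACCGGttctgccacc
BAT1 (chrVIII:517375-517404, + strand): attgtgtttgCCGGTACCGGcctttaagct
GDH1 (chrXV:1043427-1043456, - strand): aaccaatgcgCCGGAACCGGcccatgcatt
ILV5 held TGACTCA at 2 places besides, BAT1 and LEU1 each at 1.

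Total counts ranged from 11221758 to 11970166 per library, so a count of 0 allowed at most 0.267 CPM. HOG1 had no reads in any library and CRZ1 had 2 in all. The a-cell genes STE2 (10293 to 18121 counts), MFA1 and MFA2 stood above the alpha-cell gene STE3 (174 to 574 counts) in every library. All libraries were run on a single flow cell lane.

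Expression is given below as normalised CPM, that is counts scaled to a common library size after TMM scaling, which centres the libraries on the bulk of genes. A change is the log2 of the value at a time over the value at 0 min of the same treatment, and a difference is the change in FK506 cells minus the change in ET cells. A gene passed the test at a Benjamini-Hochberg adjusted p under 0.05 over the 6206 genes tested, in a limma fit with 7 residual degrees of freedom. For 2 libraries against 2, the lowest p that an exact permutation test can reach is 0.333, and the limma fit therefore takes the spread from all 16 libraries and across genes.

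Most of the genes were lower at 30 min than at 0 min in both treatments, and at 60 min fewer were lower in FK506 cells than in ET cells. At 10 min 3 of the 53 genes were higher and 33 lower in FK506 cells, against 24.4% higher and 30.2% lower among all genes tested. In ET cells 7 were higher and 30 lower at that time, against 26.6% and 31.8% of all genes. At 30 min the counts were 4 higher and 39 lower in FK506 cells (24.5% and 27.5% of all genes) and 12 higher and 35 lower in ET cells (33.1% and 35.3% of all genes). At 60 min FK506 cells had 7 genes higher and 22 lower (13.1% and 15.7% of all genes), and ET cells had 9 higher and 39 lower (33.6% and 34.7% of all genes). The lower calls thus made up 41.5% of these genes in FK506 cells and 73.6% in ET cells at 60 min. At the early times the few higher calls depended on single libraries. In FK506 cells they numbered 1 at 10 min without replicate 1 or replicate 2 at 0 min, and at 30 min 1 without replicate 1 at 0 min and 2 without replicate 2 at 30 min. In ET cells at 10 min they numbered 4 without replicate 1 at 0 min or replicate 2 at 10 min.

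The size of the changes differed in the same way. The median log2 change of the 53 genes was -0.28, -0.43 and -0.15 at 10, 30 and 60 min in FK506 cells, and -0.18, -0.39 and -0.70 in ET cells, while the median of all genes lay between -0.03 and 0.01. None of the 53 genes had fallen by 1 or more on the log2 scale at 60 min in FK506 cells, whereas 16 had in ET cells. At 30 min the numbers were 11 in FK506 cells and 14 in ET cells. Falls of this size were not counted over all genes. Among all genes, lower calls of any size were also fewer in FK506 cells (15.7%) than in ET cells (34.7%) at 60 min. Of the 39 genes lower in ET cells at 60 min, 21 were also lower in FK506 cells, 15 did not pass the test there and 3 were higher. All 39 had a less negative or a positive value in FK506 cells. They were picked for being lower in ET cells, which by itself favours such values in FK506 cells. This overlap was not counted over all genes.

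**Figure D1:**
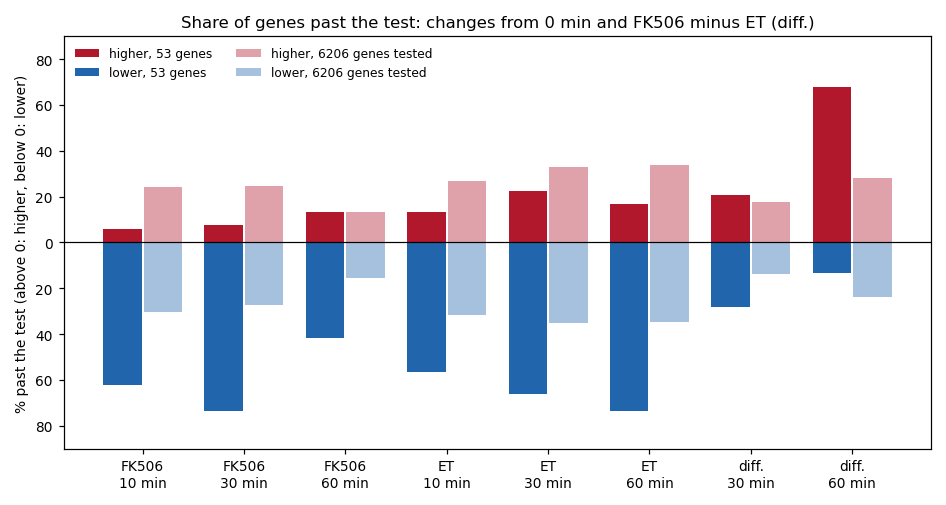
Share of genes past the test, in percent, for the changes from 0 min in FK506 and ET cells and for the FK506 minus ET difference (diff.) at 30 and 60 min, with bars above 0 for higher and below 0 for lower. Dark bars are the 53 genes and pale bars all 6206 genes tested; at 60 min lower calls made up 41.5% of the 53 genes in FK506 cells and 73.6% in ET cells.

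The difference between treatments was tested directly, and counts of positive and negative differences here and below are of genes past the test. At 10 min none of the 53 genes passed (0.0806% of all genes did, in either direction), and edgeR and DESeq2 also called none. An unadjusted limma p under 0.05 was reached by 7 of the 53 genes and by 432 of the 6206 genes tested. When FK506 and ET cells were compared at 10 min without subtracting 0 min, 11 of the genes were lower in FK506 cells and none higher, against 3.17% lower and 3.09% higher among all genes. They included GCN4 at -0.24 and CPA1 at -0.43 on the log2 scale. At 30 min the difference was positive for 11 genes and negative for 15, against 17.8% and 14% of all genes, and the negative calls numbered 9 without replicate 2 at FK506 0 min. At 60 min it was positive for 36 genes and negative for 7, against 27.9% and 24% of all genes, and its median was 0.57 over the 53 genes and 0.007 over all genes. Without subtracting 0 min, 10 genes were higher and 23 lower in FK506 cells at 30 min (22% and 19.5% of all genes), and 38 were higher and 9 lower at 60 min (32.3% and 30.4% of all genes). The 30 and 60 min differences share their 0 min libraries.

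These counts depend in part on how libraries were centred. When raw totals replaced the TMM factors, the median change of all genes moved up by 0.20 at 30 min and 0.12 at 60 min in FK506 cells and by 0.20 and 0.23 in ET cells, and the median 60 min difference moved by -0.11. The split of the genes then became 8 higher and 28 lower in FK506 cells at 30 min, and 12 higher with 17 lower at 60 min. For ET cells 12 higher and 24 lower were found at 10 min, 16 higher with 27 lower at 30 min, and 14 higher with 33 lower at 60 min. The 60 min difference became 33 positive and 9 negative. All changes below are relative to the TMM centre.

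**Figure D2:**
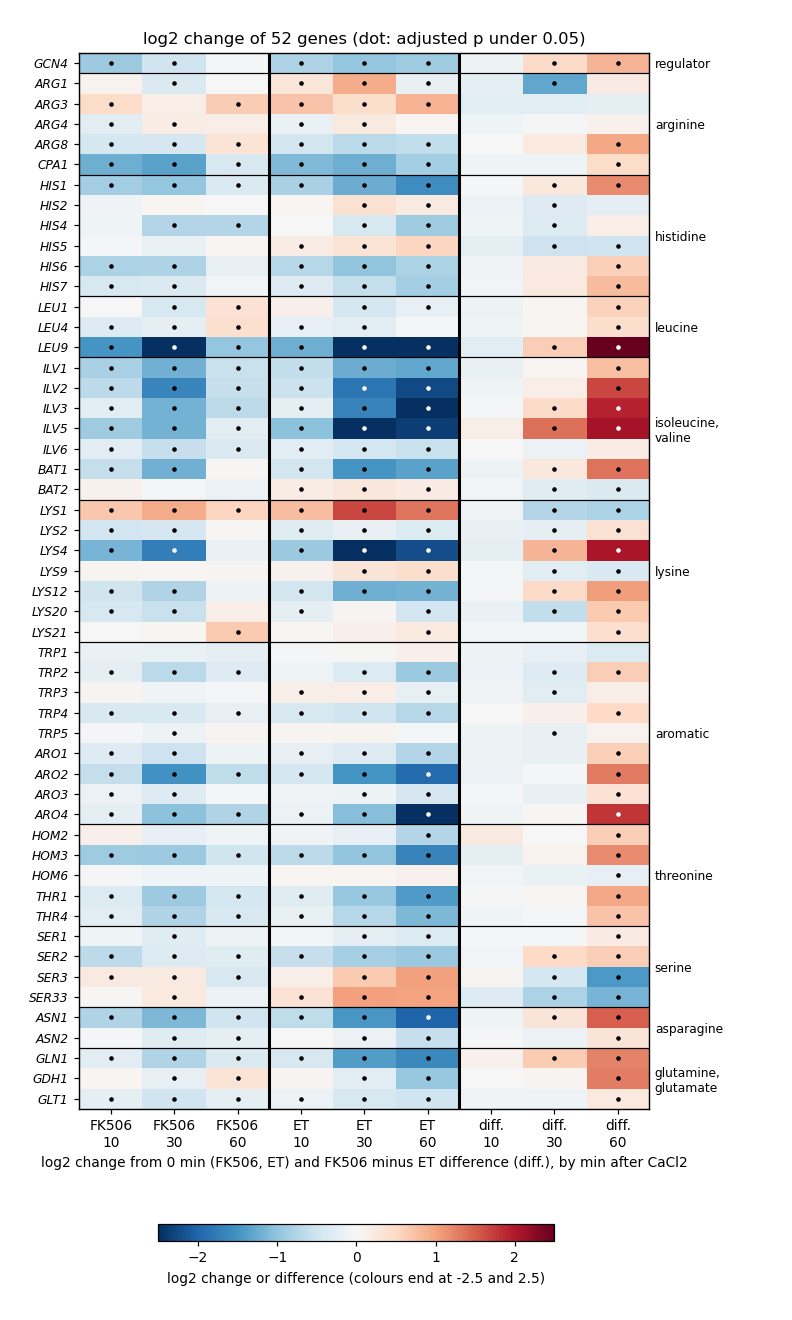
Heat map of the log2 change from 0 min for 52 of the 53 genes (rows, grouped by pathway) at 10, 30 and 60 min in FK506 and ET cells, and of the FK506 minus ET difference (diff.). Dots mark adjusted p under 0.05; the 60 min difference holds 36 positive and 7 negative calls, and with raw library totals the called values of TRP5 in FK506 cells at 30 min, of LYS2, ARO3 and ASN2 in ET cells at 30 min and of ARG1, LEU1 and TRP3 in ET cells at 60 min change sign.

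GCN4 (YEL009C, chromosome V, 138918 to 139763) encodes the bZIP activator of the general control. It measured 631 and 618 normalised CPM at 0 min, 335 and 329.5 at 10 min, 419.8 and 468 at 30 min, with 615 and 604 at 60 min in FK506 cells. The ET libraries gave 680.3 and 659 at 0 min, 403 and 379.6 at 10 min, 343 and 341 at 30 min, with 361 and 365 at 60 min. The replicates lay close together and the treatments did not overlap at any time, with FK506 cells slightly below ET cells at 0 and 10 min and above them at 30 and 60 min. In FK506 cells the mRNA fell by 10 min, at -0.91 ± 0.057 (SE, adjusted p = 1.24e-09, limma) on the log2 scale, was partly back at 30 min at -0.49 ± 0.056 (SE, adjusted p = 9.21e-07, limma), and stood at -0.035 (adjusted p = 0.683, limma) by 60 min, a value that turned to 0.087 with raw library totals. ET cells gave -0.77 ± 0.056 (SE, adjusted p = 5.78e-09, limma), -0.97 ± 0.057 (SE, adjusted p = 7.83e-11, limma) and -0.88 ± 0.056 (SE, adjusted p = 2.31e-10, limma) at the same times. The difference was -0.14 (adjusted p = 0.778, limma) at 10 min, 0.48 ± 0.08 (SE, adjusted p = 0.000294, limma) at 30 min and 0.85 ± 0.079 (SE, adjusted p = 9.24e-08, limma) at 60 min.

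The earlier times were led by few genes. At 10 min LEU9 changed by -1.48 ± 0.083 (SE, adjusted p = 3.27e-10, limma) in FK506 cells and -1.22 ± 0.078 (SE, adjusted p = 1.45e-09, limma) in ET cells, and CPA1 by -1.21 ± 0.073 (SE, adjusted p = 7.22e-10, limma) and -1.11 ± 0.068 (SE, adjusted p = 7.72e-10, limma), the largest falls in both treatments. The largest rises at that time were those of LYS1, at 0.68 ± 0.11 (SE, adjusted p = 3.38e-05, limma) in FK506 cells and 0.77 ± 0.11 (SE, adjusted p = 8.37e-06, limma) in ET cells. ARG3 came next in ET cells at 0.72 ± 0.15 (SE, adjusted p = 0.000635, limma), and its FK506 value of 0.46 (adjusted p = 0.0208, limma) was lost without either replicate at FK506 0 min or replicate 1 at FK506 10 min (0.42 to 0.51). At 30 min LEU9 had fallen furthest, at -2.53 ± 0.095 (SE, adjusted p = 8.47e-13, limma) in FK506 cells and -3.13 ± 0.1 (SE, adjusted p = 6.77e-14, limma) in ET cells, followed by LYS4 at -1.72 ± 0.11 (SE, adjusted p = 2.95e-10, limma) and -2.57 ± 0.12 (SE, adjusted p = 3.47e-12, limma). LYS4 had a 30 min difference of 0.85 (95% interval 0.52 to 1.18, adjusted p = 0.000691, limma), and LEU9 one of 0.61 (adjusted p = 0.00337, limma).

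**Figure D3:**
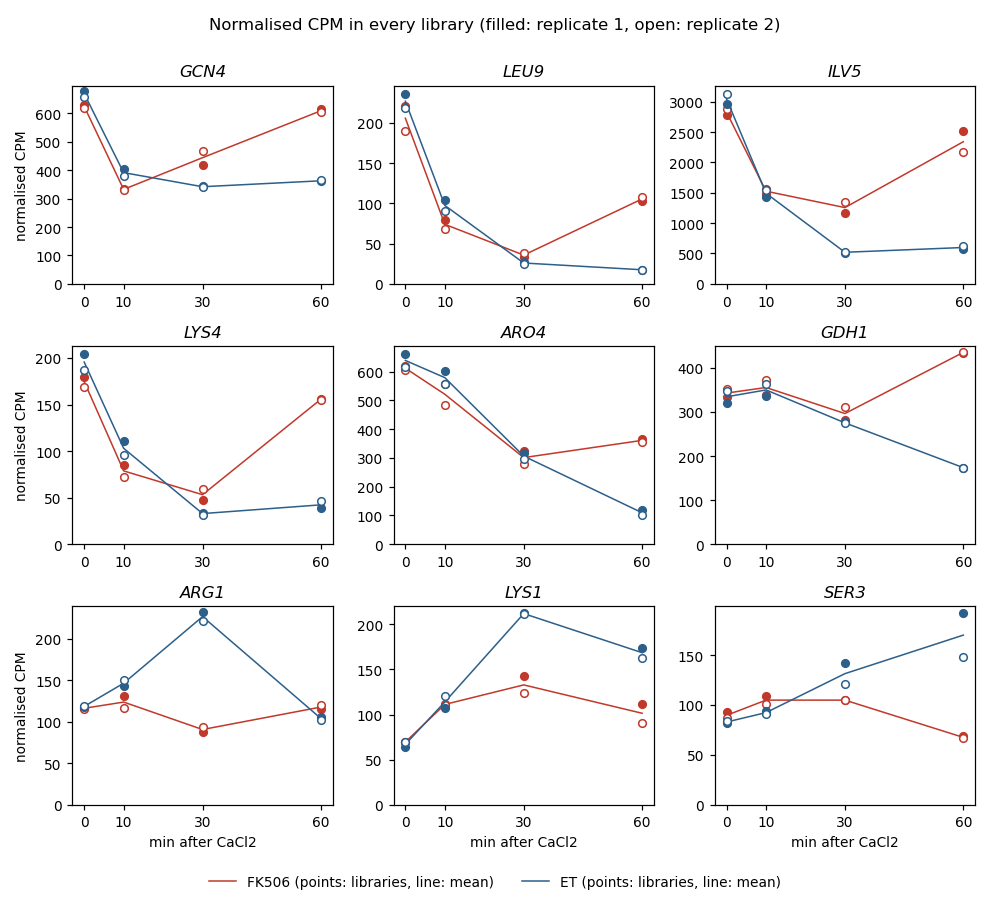
Normalised CPM of 9 of the genes in every library against min after CaCl2, with FK506 and ET cells in separate colours, filled and open points for replicates 1 and 2, and lines through the means. GCN4 was close to its starting level in FK506 cells at 60 min (604 and 615 normalised CPM) and GDH1 above it, and LYS1 and SER3 were lower there than in ET cells.

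The branched-chain pathways held the largest 60 min fall and the highest differences. Among the 3 leucine genes 2 were higher and 1 lower at 60 min in FK506 cells (13.1% and 15.7% of all genes). None was higher and 2 were lower in ET cells (33.6% and 34.7% of all genes). Isopropylmalate synthase makes the committed intermediate of leucine synthesis, which is also the ligand that turns Leu3 into an activator. LEU9 (YOR108W, chromosome XV, 523027 to 524841), the minor form of the enzyme, measured 222 and 190.3 normalised CPM at 0 min, 79.6 and 68.3 at 10 min, 33.5 and 37.9 at 30 min, with 103 and 108 at 60 min in FK506 cells. In ET cells it stood at 235 and 218 at 0 min, 104 and 91.0 at 10 min, 27.6 and 24.2 at 30 min, with 17.2 and 17.8 at 60 min. It fell in both treatments, and at 60 min its 2 FK506 libraries stood far above the 2 ET libraries. The 60 min change was -0.96 ± 0.077 (SE, adjusted p = 2.89e-08, limma) in FK506 cells and -3.70 ± 0.12 (SE, adjusted p = 1.22e-14, limma) in ET cells, and the difference of 2.73 (95% interval 2.44 to 3.03, adjusted p = 3.82e-11, limma) was the highest of the 53 genes. LEU4 (YNL104C, chromosome XIV, 424895 to 426754), the major isopropylmalate synthase, measured 401 and 401 normalised CPM at 0 min, 330.2 and 315 at 10 min, 342 and 339 at 30 min, with 562 and 499 at 60 min in FK506 cells. Its values were 408 and 409.7 at 0 min, 360.1 and 346 at 10 min, 345 and 328 at 30 min, with 394 and 399 at 60 min in ET cells. At 60 min it stood above its starting level in FK506 cells and close to it in ET cells, with changes of 0.40 ± 0.054 (SE, adjusted p = 1.57e-05, limma) and -0.045 (adjusted p = 0.481, limma) and a difference of 0.45 (95% interval 0.28 to 0.61, adjusted p = 9.57e-05, limma). LEU1, the isomerase of the next step, had a 60 min difference of 0.57 (adjusted p = 6.58e-05, limma), with changes of 0.36 in FK506 cells and -0.21 in ET cells. The ET value was called, but not without replicate 1 at ET 60 min or replicate 2 at ET 0 min (-0.14 to -0.28 over all libraries left out in turn), and it turned to 0.027 with raw library totals.

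Of the 7 genes of isoleucine and valine synthesis, none was higher and 5 were lower at 60 min in FK506 cells (13.1% and 15.7% of all genes). In ET cells 1 was higher and 6 were lower (33.6% and 34.7% of all genes). ILV5 (YLR355C, chromosome XII, 838066 to 839253), the acetohydroxyacid reductoisomerase and the most abundant of the 53 mRNAs per length at 0 min (2471 normalised CPM per kb, mean of 4 libraries), measured 2772 and 2882 normalised CPM at 0 min, 1484 and 1566 at 10 min, 1159 and 1352 at 30 min, with 2516 and 2164 at 60 min in FK506 cells. The ET cultures gave 2956 and 3133 at 0 min, 1435 and 1547 at 10 min, 508 and 531 at 30 min, with 567 and 629 at 60 min. ET cells had less of it than FK506 cells at 30 and 60 min with no overlap. Its change was -1.17 ± 0.072 (SE, adjusted p = 3.17e-10, limma) at 30 min and -0.28 at 60 min in FK506 cells, against -2.55 ± 0.075 (SE, adjusted p = 2.28e-14, limma) and -2.35 ± 0.075 (SE, adjusted p = 1.43e-14, limma) in ET cells. The 60 min value in FK506 cells passed the test but not without replicate 1 at FK506 0 min (-0.26) or replicate 2 at FK506 60 min (-0.12). The difference was 1.38 (95% interval 1.16 to 1.60, adjusted p = 5.68e-07, limma) at 30 min, the highest of the 53 genes at that time, and 2.07 (95% interval 1.85 to 2.29, adjusted p = 2.61e-11, limma) at 60 min.

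The genes for the enzymes on either side of Ilv5 also had high differences. ILV2, the catalytic subunit of acetolactate synthase, measured 454 and 442 normalised CPM in FK506 cells, against 141 and 155 in ET cells at 60 min, and its difference was 1.67 (adjusted p = 3.80e-11, limma). ILV3 (YJR016C, chromosome X, 464451 to 466208), dihydroxyacid dehydratase, measured 1336 and 1397 normalised CPM at 0 min, 1132 and 1146 at 10 min, 592 and 608 at 30 min, with 874 and 873 at 60 min in FK506 cells. For ET cells the values were 1366 and 1455 at 0 min, 1189 and 1215 at 10 min, 447 and 443 at 30 min, with 226 and 251 at 60 min. Besides LEU9, it was the gene that fell most in ET cells at 60 min, at -2.57 ± 0.051 (SE, adjusted p = 2.16e-17, limma) against -0.65 ± 0.048 (SE, adjusted p = 1.04e-08, limma) in FK506 cells. ILV1, threonine deaminase, had a smaller difference of 0.74 (adjusted p = 3.18e-05, limma). For ILV6, the regulatory subunit of acetolactate synthase, the difference was 0.19 (95% interval 0.019 to 0.35, adjusted p = 0.0588, limma) and did not pass the test.

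The branched-chain aminotransferases split. BAT1 (YHR208W, chromosome VIII, 517532 to 518713), the mitochondrial enzyme, measured 468 and 449 normalised CPM at 0 min, 318 and 293 at 10 min, 192 and 206 at 30 min, with 488 and 443 at 60 min in FK506 cells. Those of ET cells were 472 and 476 at 0 min, 339 and 347 at 10 min, 175 and 168 at 30 min, with 181 and 196 at 60 min. At 60 min its level in FK506 cells was back in the range of 0 min and in ET cells it was not, with changes of 0.021 (adjusted p = 0.841, limma) and -1.33 ± 0.066 (SE, adjusted p = 8.15e-12, limma) and a difference of 1.35 (95% interval 1.16 to 1.55, adjusted p = 1.75e-09, limma). BAT2 (YJR148W, chromosome X, 705744 to 706874), the cytosolic enzyme, measured 126 and 123 normalised CPM at 0 min, 129 and 142 at 10 min, 124 and 121 at 30 min, with 111 and 113 at 60 min in FK506 cells. ET cells had 113 and 115 at 0 min, 126 and 133 at 10 min, 139 and 139 at 30 min, with 136 and 128 at 60 min. Its libraries spanned only 111 to 142 normalised CPM, and its difference was negative at -0.31 (adjusted p = 0.0129, limma) at 30 min and -0.36 (adjusted p = 0.00243, limma) at 60 min.

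Of the 7 lysine genes 2 were higher and none lower at 60 min in FK506 cells (13.1% and 15.7% of all genes). In ET cells 3 were higher and 4 lower (33.6% and 34.7% of all genes). The upper part of the pathway builds aminoadipate from oxoglutarate and acetyl-CoA, and the lower part converts it to lysine through saccharopine. LYS4 (YDR234W, chromosome IV, 931129 to 933210), homoaconitase, measured 179.8 and 169 normalised CPM at 0 min, 85.0 and 72.4 at 10 min, 47.1 and 59.3 at 30 min, with 156 and 155 at 60 min in FK506 cells. The ET libraries gave 204 and 187 at 0 min, 110.4 and 95.5 at 10 min, 33.9 and 31.9 at 30 min, with 38.6 and 46.0 at 60 min. It fell in both treatments by 10 min, and at 60 min the FK506 libraries were close to their starting level and the ET libraries were not, with a change of -0.16 (adjusted p = 0.197, limma) against -2.21 ± 0.11 (SE, adjusted p = 7.86e-12, limma) in ET cells and a difference of 2.05 (95% interval 1.75 to 2.35, adjusted p = 2.39e-09, limma). LYS12, homoisocitrate dehydrogenase, measured 255 and 252 normalised CPM in FK506 cells, against 131 and 136 in ET cells at 60 min, with a difference of 1.05 (adjusted p = 5.17e-09, limma). The aminoadipate reductase LYS2 had a difference of -0.24 (adjusted p = 0.0199, limma) at 30 min and 0.38 (adjusted p = 0.000305, limma) at 60 min. The 30 min call of LYS2 was lost without replicate 1 at ET 30 min or FK506 30 min and without replicate 2 at ET 0 min or FK506 0 min (-0.20 to -0.30).

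The genes of the saccharopine steps, LYS9 and LYS1, rose in ET cells at 60 min. LYS1 (YIR034C, chromosome IX, 419615 to 420736), which encodes the enzyme that releases lysine, measured 69.5 and 69.5 normalised CPM at 0 min, 112 and 110.3 at 10 min, 142 and 123 at 30 min, with 112 and 90.8 at 60 min in FK506 cells. In ET cells it stood at 64.2 and 69.9 at 0 min, 107 and 121 at 10 min, 213 and 211 at 30 min, with 174 and 163 at 60 min. It rose in both treatments and rose further in ET cells, with no overlap from 30 min on. Its change was 0.93 ± 0.1 (SE, adjusted p = 6.64e-07, limma) at 30 min and 0.54 ± 0.11 (SE, adjusted p = 0.000808, limma) at 60 min in FK506 cells, against 1.66 ± 0.1 (SE, adjusted p = 1.33e-10, limma) and 1.33 ± 0.1 (SE, adjusted p = 2.77e-09, limma) in ET cells, the highest of the 53 genes in ET cells at both times. LYS9, saccharopine reductase, changed by 0.066 in FK506 cells (not past the test) and 0.44 in ET cells at 60 min, with a difference of -0.38 (adjusted p = 0.000637, limma).

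Homocitrate synthase, which starts the pathway, is encoded by a pair of near-identical genes. LYS20 (YDL182W, chromosome IV, 133437 to 134723) measured 43.6 and 42.7 normalised CPM at 0 min, 36.2 and 29.0 at 10 min, 31.1 and 27.7 at 30 min, with 52.4 and 44.9 at 60 min in FK506 cells. Its values were 52.8 and 44.9 at 0 min, 42.4 and 40.6 at 10 min, 51.8 and 50.6 at 30 min, with 37.8 and 32.1 at 60 min in ET cells. LYS21 (YDL131W, chromosome IV, 227393 to 228715) measured 131 and 128 normalised CPM at 0 min, 127 and 128 at 10 min, 132 and 135 at 30 min, with 215 and 194 at 60 min in FK506 cells. The ET cultures gave 147 and 139 at 0 min, 146 and 149 at 10 min, 164 and 147 at 30 min, with 165 and 172 at 60 min. Only 62.2% of the 50-base windows of LYS20 and 63.3% of those of LYS21 are unique in the genome, so the split of reads between them is uncertain. LYS21 stood at its highest in FK506 cells at 60 min, with a change of 0.66 ± 0.064 (SE, adjusted p = 3.17e-07, limma) against 0.24 ± 0.064 (SE, adjusted p = 0.00343, limma) in ET cells. The LYS20 difference was -0.62 ± 0.13 (SE, adjusted p = 0.00154, limma) at 30 min and 0.66 ± 0.13 (SE, adjusted p = 0.000271, limma) at 60 min, and its sign thus changed between these times.

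In the aromatic pathway 4 genes of the 9 were lower at 60 min in FK506 cells and 7 in ET cells (15.7% and 34.7% of all genes). None was higher in either (13.1% and 33.6% of all genes), although TRP3 in ET cells turned to 0.035 with raw library totals. ARO4 (YBR249C, chromosome II, 716882 to 717994), a DAHP synthase at the entry to the shikimate pathway, measured 618 and 606 normalised CPM at 0 min, 557 and 485 at 10 min, 324 and 279 at 30 min, with 366 and 356 at 60 min in FK506 cells. For ET cells the values were 661 and 617 at 0 min, 602 and 556 at 10 min, 316 and 296 at 30 min, with 118 and 101 at 60 min. The treatments overlapped up to 30 min and lay apart at 60 min. Its change was -1.03 ± 0.056 (SE, adjusted p = 6.64e-11, limma) at 30 min and -0.76 ± 0.056 (SE, adjusted p = 1.01e-08, limma) at 60 min in FK506 cells, against -1.06 ± 0.056 (SE, adjusted p = 2.16e-11, limma) and -2.55 ± 0.061 (SE, adjusted p = 2.11e-16, limma) in ET cells. The difference was 0.034 (95% interval -0.13 to 0.20, adjusted p = 0.781, limma) at 30 min and 1.79 (95% interval 1.61 to 1.96, adjusted p = 9.16e-12, limma) at 60 min. ARO3 (YDR035W, chromosome IV, 521816 to 522928), the other DAHP synthase, measured 238 and 222 normalised CPM at 0 min, 219 and 199 at 10 min, 184 and 185 at 30 min, with 227 and 219 at 60 min in FK506 cells. Those of ET cells were 252 and 233 at 0 min, 234 and 219 at 10 min, 231 and 211 at 30 min, with 179.9 and 184 at 60 min. Its 60 min change was -0.046 (adjusted p = 0.596, limma) in FK506 cells and -0.41 ± 0.057 (SE, adjusted p = 4.92e-06, limma) in ET cells, with a difference of 0.37 (adjusted p = 0.000922, limma).

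Further down the same route, ARO2, chorismate synthase, measured 288 and 303 normalised CPM in FK506 cells, against 117 and 133 in ET cells at 60 min and had a difference of 1.30 (adjusted p = 8.79e-09, limma). ARO1, which encodes the pentafunctional enzyme between Aro4 and Aro2, had a difference of 0.60 (adjusted p = 6.80e-06, limma). On the tryptophan branch the values were smaller. TRP2, the anthranilate synthase, had a 60 min difference of 0.61 (adjusted p = 2.03e-05, limma) and TRP4, the transferase of the next step, 0.50 (adjusted p = 0.000992, limma). TRP1 (YDR007W, chromosome IV, 461842 to 462516), the isomerase of the branch, measured 25.0 and 25.1 normalised CPM at 0 min, 22.2 and 22.6 at 10 min, 24.9 and 19.7 at 30 min, with 22.4 and 20.7 at 60 min in FK506 cells. ET cells had 25.8 and 22.4 at 0 min, 24.7 and 22.5 at 10 min, 25.4 and 23.5 at 30 min, with 25.9 and 26.5 at 60 min. The treatments overlapped up to 30 min, and the 60 min difference was -0.34 (95% interval -0.67 to -0.0064, adjusted p = 0.0824, limma), which did not pass the test. TRP3, the other subunit of anthranilate synthase, and TRP5, tryptophan synthase, had 60 min differences of 0.16 and 0.092 that did not pass either.

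Threonine synthesis starts from aspartate. At 60 min 3 of its 5 genes were lower in FK506 cells and 4 in ET cells (15.7% and 34.7% of all genes). HOM3 (YER052C, chromosome V, 256375 to 257958), aspartate kinase, measured 229 and 239.9 normalised CPM at 0 min, 136 and 119 at 10 min, 122 and 126 at 30 min, with 176 and 158 at 60 min in FK506 cells. The ET libraries gave 252 and 252 at 0 min, 169 and 153 at 10 min, 130.0 and 123 at 30 min, with 78.4 and 79.3 at 60 min. It fell in both treatments, which overlapped at 30 min and lay apart at 60 min. Its 60 min change was -0.49 ± 0.066 (SE, adjusted p = 1.59e-05, limma) in FK506 cells and -1.68 ± 0.071 (SE, adjusted p = 7.77e-13, limma) in ET cells, and the difference was 1.19 (95% interval 0.98 to 1.39, adjusted p = 1.70e-08, limma). THR1, homoserine kinase, and THR4, threonine synthase, had 60 min differences of 0.98 (adjusted p = 1.24e-08, limma) and 0.72 (adjusted p = 8.09e-08, limma). HOM2, aspartate semialdehyde dehydrogenase, had 0.62 (adjusted p = 0.00111, limma). HOM6 (YJR139C, chromosome X, 689445 to 690524), homoserine dehydrogenase, measured 616 and 609 normalised CPM at 0 min, 616 and 584 at 10 min, 589.9 and 540.5 at 30 min, with 604 and 542 at 60 min in FK506 cells. In ET cells it stood at 633 and 624 at 0 min, 656 and 637 at 10 min, 657 and 648 at 30 min, with 691 and 673 at 60 min. It did not pass the test against 0 min at any time in either treatment, and its 60 min difference of -0.21 (adjusted p = 0.0195, limma) was lost without replicate 1 at ET 0 min (-0.18), replicate 2 at ET 60 min (-0.19) or replicate 2 at FK506 0 min (-0.20).

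Of the 6 histidine genes none was higher and 2 were lower at 60 min in FK506 cells (13.1% and 15.7% of all genes). In ET cells 2 were higher and 4 lower (33.6% and 34.7% of all genes). HIS1 (YER055C, chromosome V, 264892 to 265785), the ATP phosphoribosyltransferase that starts the pathway, measured 274 and 251 normalised CPM at 0 min, 157 and 133 at 10 min, 130.3 and 138 at 30 min, with 217 and 194 at 60 min in FK506 cells. Its values were 297 and 281 at 0 min, 170.5 and 159.8 at 10 min, 126 and 120.2 at 30 min, with 98.3 and 99.7 at 60 min in ET cells. At 60 min the FK506 libraries were above their 30 min level and the ET libraries below theirs. Its 60 min change was -0.36 ± 0.066 (SE, adjusted p = 0.000473, limma) in FK506 cells and -1.55 ± 0.069 (SE, adjusted p = 1.87e-12, limma) in ET cells, with a difference of 1.19 (95% interval 0.99 to 1.39, adjusted p = 1.40e-08, limma). HIS7, which acts in the middle of the pathway, had a 60 min difference of 0.78 (adjusted p = 3.16e-05, limma). HIS6, the isomerase before it, had 0.59 (adjusted p = 0.0197, limma), a call that was lost with raw library totals and without replicate 1 at ET 0 min, ET 60 min or FK506 0 min or replicate 2 at FK506 60 min (0.46 to 0.70). HIS4, a multifunctional enzyme and a classic Gcn4 target, measured 279 and 267 normalised CPM in FK506 cells, against 247 and 231 in ET cells at 60 min, lower than at 0 min in both treatments, and its difference of 0.17 (95% interval 0.0098 to 0.33, adjusted p = 0.071, limma) did not pass the test.

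HIS5 was the histidine gene with a negative difference past the test at 60 min. HIS5 (YIL116W, chromosome IX, 142928 to 144085), the aminotransferase, measured 79.1 and 72.6 normalised CPM at 0 min, 76.1 and 70.6 at 10 min, 73.3 and 63.0 at 30 min, with 84.1 and 72.7 at 60 min in FK506 cells. The ET cultures gave 76.8 and 74.0 at 0 min, 90.8 and 81.3 at 10 min, 97.6 and 94.7 at 30 min, with 109.9 and 109.8 at 60 min. Its 60 min change was 0.047 (adjusted p = 0.692, limma) in FK506 cells, where no time passed the test, and 0.54 ± 0.071 (SE, adjusted p = 2.84e-06, limma) in ET cells, where it rose. The difference was -0.51 (adjusted p = 0.00154, limma) at 30 min and -0.50 (95% interval -0.71 to -0.28, adjusted p = 0.000605, limma) at 60 min. HIS2, the phosphatase, had a difference of -0.33 (adjusted p = 0.0157, limma) at 30 min, lost without replicate 1 at ET 0 min or replicate 2 at FK506 0 min (-0.27 to -0.39), and -0.22 (adjusted p = 0.0698, limma) at 60 min.

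Of the 6 arginine genes 2 were higher and 1 lower at 60 min in FK506 cells (13.1% and 15.7% of all genes). In ET cells 1 was higher and 4 were lower (33.6% and 34.7% of all genes), of which ARG1 turned to 0.045 with raw library totals. ARG1 had its largest difference at 30 min. ARG1 (YOL058W, chromosome XV, 219211 to 220473), argininosuccinate synthetase, measured 117 and 116 normalised CPM at 0 min, 131 and 117 at 10 min, 88.0 and 93.1 at 30 min, with 116 and 119.7 at 60 min in FK506 cells. For ET cells the values were 118 and 119 at 0 min, 142 and 150.2 at 10 min, 232 and 222 at 30 min, with 105 and 102 at 60 min. At 30 min the FK506 libraries were the lowest and the ET libraries the highest of all 16, and at 60 min the treatments were close again. The 30 min change was -0.36 ± 0.068 (SE, adjusted p = 0.000259, limma) in FK506 cells and 0.94 ± 0.063 (SE, adjusted p = 5.24e-10, limma) in ET cells, and the difference was -1.29 (95% interval -1.49 to -1.10, adjusted p = 4.41e-07, limma), the lowest of the 53 genes at that time. With raw library totals the FK506 value became -0.16 and did not pass the test. At 60 min the difference was 0.21 (95% interval 0.0098 to 0.41, adjusted p = 0.0741, limma).

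CPA1 (YOR303W, chromosome XV, 882899 to 884134), which acts at the carbamoyl-phosphate step of arginine synthesis, measured 163 and 149.9 normalised CPM at 0 min, 69.2 and 65.6 at 10 min, 59.6 and 63.7 at 30 min, with 116 and 122 at 60 min in FK506 cells. Those of ET cells were 206 and 186 at 0 min, 91.9 and 89.2 at 10 min, 86.1 and 80.9 at 30 min, with 107 and 109.6 at 60 min. It was the single one of the 53 genes whose level passed the test between FK506 and ET cells at 0 min, at -0.32 ± 0.061 (SE, adjusted p = 0.0137, limma), where 1.56% of all genes passed in either direction. That call was lost without replicate 1 at ET 0 min (-0.26) or replicate 2 at FK506 0 min (-0.29). CPA1 fell in both treatments, and its 30 min difference was -0.11 (95% interval -0.32 to 0.097, adjusted p = 0.425, limma) and its 60 min difference 0.46 (adjusted p = 0.000439, limma). Without subtracting 0 min the 60 min value became 0.14 and did not pass.

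The remaining arginine genes differed from these. ARG8 (YOL140W, chromosome XV, 58759 to 60030), acetylornithine aminotransferase of the mitochondrial steps, measured 50.4 and 48.1 normalised CPM at 0 min, 36.6 and 36.3 at 10 min, 34.2 and 39.0 at 30 min, with 62.5 and 63.2 at 60 min in FK506 cells. ET cells had 58.3 and 53.7 at 0 min, 42.8 and 39.1 at 10 min, 36.3 and 33.8 at 30 min, with 35.0 and 37.9 at 60 min. It was above its starting level in FK506 cells and below it in ET cells at 60 min, with changes of 0.35 ± 0.086 (SE, adjusted p = 0.00475, limma) and -0.62 ± 0.091 (SE, adjusted p = 1.04e-05, limma) and a difference of 0.97 (95% interval 0.71 to 1.24, adjusted p = 4.47e-06, limma). ARG3 (YJL088W, chromosome X, 268799 to 269815), ornithine transcarbamylase, was the lowest of the 53 mRNAs per length at 0 min (19.1 normalised CPM per kb) and measured 18.8 and 19.6 normalised CPM at 0 min, 26.3 and 26.8 at 10 min, 20.1 and 23.0 at 30 min, with 33.4 and 26.9 at 60 min in FK506 cells. The ET libraries gave 18.5 and 20.8 at 0 min, 33.3 and 31.4 at 10 min, 25.8 and 27.1 at 30 min, with 30.9 and 41.5 at 60 min. It was higher than at 0 min in both treatments at 60 min, at 0.64 (adjusted p = 0.00452, limma) in FK506 cells and 0.88 (adjusted p = 5.07e-05, limma) in ET cells. The FK506 call was lost without replicate 1 at FK506 60 min (0.41). Its difference was -0.24 (95% interval -0.69 to 0.21, adjusted p = 0.374, limma). ARG4, argininosuccinate lyase, had 60 min changes of 0.17 in FK506 cells and 0.053 in ET cells, neither past the test.

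**Figure D4:**
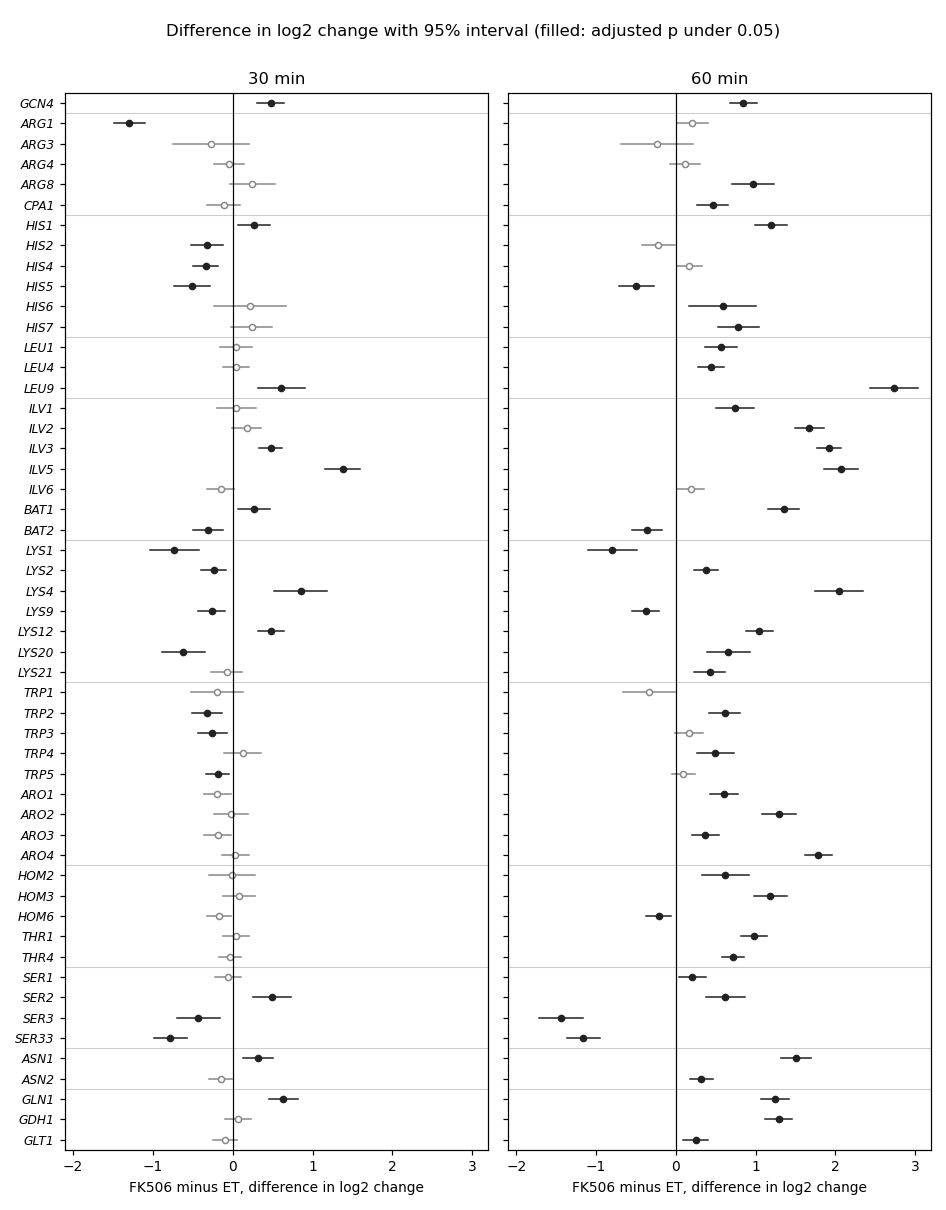
FK506 minus ET difference in log2 change at 30 min (left) and 60 min (right) for 52 of the 53 genes, with 95% intervals and filled points for adjusted p under 0.05. At 30 min ARG1 (-1.29) and ILV5 (1.38) mark the ends, and at 60 min SER3 (-1.44) and LEU9 (2.73).

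Serine synthesis had the lowest median 60 min difference of the pathways (-0.48), with 2 of its 4 genes positive and 2 negative (27.9% and 24% of all genes). Phosphoglycerate dehydrogenase, which draws carbon from glycolysis into serine, is encoded by SER3 and SER33. SER3 (YER081W, chromosome V, 322686 to 324095) measured 92.7 and 86.5 normalised CPM at 0 min, 109 and 101 at 10 min, 105 and 105 at 30 min, with 68.5 and 66.5 at 60 min in FK506 cells. In ET cells it stood at 82.0 and 83.8 at 0 min, 93.6 and 91.1 at 10 min, 142 and 121 at 30 min, with 192 and 148 at 60 min. SER33 (YIL074C, chromosome IX, 221081 to 222490) measured 150.0 and 168 normalised CPM at 0 min, 158 and 168 at 10 min, 191 and 184 at 30 min, with 152 and 135 at 60 min in FK506 cells. Its values were 161 and 163 at 0 min, 200.4 and 214 at 10 min, 330.1 and 330.2 at 30 min, with 337 and 317 at 60 min in ET cells. Both genes were higher in ET cells than in FK506 cells at 30 and 60 min with no overlap. The 60 min change of SER3 was -0.41 (adjusted p = 0.00377, limma) in FK506 cells, lost without replicate 1 at FK506 60 min (-0.33), and 1.03 ± 0.089 (SE, adjusted p = 1.34e-08, limma) in ET cells. Its difference of -1.44 (95% interval -1.71 to -1.16, adjusted p = 7.30e-08, limma) was the lowest of the 53 genes. SER33 changed by -0.15 (adjusted p = 0.137, limma) in FK506 cells and 1.01 ± 0.068 (SE, adjusted p = 4.99e-10, limma) in ET cells, with a difference of -1.16 (95% interval -1.37 to -0.95, adjusted p = 3.15e-08, limma). At 30 min SER33 stood at 0.24 (adjusted p = 0.00826, limma) in FK506 cells, lost without replicate 1 at FK506 0 min or FK506 30 min (0.16 to 0.32), against 1.03 ± 0.068 (SE, adjusted p = 4.57e-10, limma) in ET cells.

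In this yeast SER3 lies downstream of SRG1, a noncoding RNA whose transcription across the SER3 promoter represses SER3. The annotated SRG1 overlaps SER3 by 77 bases on the same strand, so reads in that stretch cannot be assigned. SRG1 measured 32.5 and 31.5 normalised CPM in FK506 cells at 60 min, against 22.0 and 22.8 in ET cells. Its 60 min change was -0.18 (adjusted p = 0.233, limma) in FK506 cells and -0.65 ± 0.11 (SE, adjusted p = 7.79e-05, limma) in ET cells, and the difference was 0.47 (adjusted p = 0.0187, limma). The opposite signs of SRG1 and SER3 are given as measured, and a link between them was not tested.

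The other serine genes had positive differences. SER2 (YGR208W, chromosome VII, 911883 to 912812), the phosphatase of the final step, measured 77.6 and 71.5 normalised CPM at 0 min, 46.0 and 49.3 at 10 min, 59.4 and 57.9 at 30 min, with 57.2 and 63.0 at 60 min in FK506 cells. The ET cultures gave 80.3 and 77.6 at 0 min, 54.8 and 50.5 at 10 min, 43.9 and 44.4 at 30 min, with 39.4 and 43.3 at 60 min. It had a difference of 0.49 (adjusted p = 0.00343, limma) at 30 min and 0.62 (adjusted p = 0.000199, limma) at 60 min. SER1, the aminotransferase, had a 60 min difference of 0.21 (adjusted p = 0.0334, limma) that was lost with DESeq2, with RLE scaling or raw library totals and without any one of 8 libraries (0.16 to 0.24).

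Both asparagine synthesis genes were lower at 60 min in FK506 and in ET cells (15.7% and 34.7% of all genes). Both had positive differences (27.9% of all genes). ASN1 (YPR145W, chromosome XVI, 822620 to 824338), an asparagine synthetase, measured 677 and 672 normalised CPM at 0 min, 413 and 391 at 10 min, 299 and 319 at 30 min, with 475 and 482 at 60 min in FK506 cells. For ET cells the values were 695 and 709.6 at 0 min, 453 and 449 at 10 min, 275 and 241 at 30 min, with 168 and 184 at 60 min. At 60 min the FK506 libraries had regained part of the loss, at -0.49 ± 0.061 (SE, adjusted p = 5.82e-06, limma) against -2.00 ± 0.064 (SE, adjusted p = 1.63e-14, limma) in ET cells, and the difference was 1.50 (95% interval 1.32 to 1.69, adjusted p = 2.58e-10, limma). ASN2 (YGR124W, chromosome VII, 739944 to 741662), its paralog, measured 1052 and 1069.8 normalised CPM at 0 min, 1029.5 and 1016 at 10 min, 859 and 869 at 30 min, with 909.9 and 879.5 at 60 min in FK506 cells. Those of ET cells were 1066 and 1094 at 0 min, 1065 and 1096 at 10 min, 974 and 980.3 at 30 min, with 757 and 701 at 60 min. The 60 min change of ASN2 was -0.25 ± 0.048 (SE, adjusted p = 0.00074, limma) in FK506 cells and -0.57 ± 0.048 (SE, adjusted p = 1.04e-08, limma) in ET cells, with a difference of 0.32 (adjusted p = 0.000655, limma). Unique 50-base windows made up 98.0% of each, so their reads can be separated for the most part. GLN1, glutamine synthetase, measured 543 and 571 normalised CPM in FK506 cells, against 237 and 245 in ET cells at 60 min, and its difference was 0.63 (adjusted p = 4.81e-05, limma) at 30 min and 1.25 (adjusted p = 1.85e-09, limma) at 60 min.

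Ammonium, the nitrogen source named for this medium, enters through glutamate dehydrogenase and glutamine synthetase. GDH1 (YOR375C, chromosome XV, 1041678 to 1043042), the NADP-dependent glutamate dehydrogenase, measured 334 and 351 normalised CPM at 0 min, 338 and 372 at 10 min, 282 and 311 at 30 min, with 434 and 436 at 60 min in FK506 cells. ET cells had 321 and 347 at 0 min, 337 and 363 at 10 min, 276 and 274 at 30 min, with 174 and 173 at 60 min. The treatments overlapped at 0 and 10 min, lay close at 30 min and were far apart at 60 min. Its 60 min change was positive in FK506 cells at 0.34 ± 0.054 (SE, adjusted p = 1.00e-04, limma) and negative in ET cells at -0.94 ± 0.057 (SE, adjusted p = 1.15e-10, limma), with a difference of 1.29 (95% interval 1.12 to 1.46, adjusted p = 4.47e-10, limma). GLT1 (YDL171C, chromosome IV, 149203 to 155640), glutamate synthase, measured 1523 and 1614 normalised CPM at 0 min, 1359.5 and 1319 at 10 min, 1111 and 1120.4 at 30 min, with 1292 and 1354 at 60 min in FK506 cells. The ET libraries gave 1552 and 1572 at 0 min, 1429.6 and 1411 at 10 min, 1227 and 1156 at 30 min, with 1137 and 1085 at 60 min. Its 60 min difference of 0.25 (adjusted p = 0.00817, limma) was lost without replicate 2 at FK506 60 min (0.16).

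In 5 of the 6 pairs of paralogs, all but SER3 and SER33, the ratio of the members at 60 min was closer to its 0 min value in FK506 cells than in ET cells. On the scale of CPM per kb, LEU4 over LEU9 was 1.77 and 2.06 in FK506 cells, against 1.69 and 1.83 in ET cells at 0 min, and 5.31 and 4.52 in FK506 cells, against 22.4 and 21.9 in ET cells at 60 min. ARO3 over ARO4 was 0.385 and 0.367 in FK506 cells, against 0.381 and 0.377 in ET cells at 0 min, and 0.619 and 0.616 in FK506 cells, against 1.53 and 1.82 in ET cells at 60 min. For BAT1 over BAT2 the ratio was 3.54 and 3.50 in FK506 cells, against 3.99 and 3.96 in ET cells at 0 min and 4.19 and 3.75 in FK506 cells, against 1.27 and 1.46 in ET cells at 60 min. ASN1 over ASN2 stood at 0.644 and 0.628 in FK506 cells, against 0.652 and 0.649 in ET cells at 0 min, and at 0.522 and 0.548 in FK506 cells, against 0.222 and 0.262 in ET cells at 60 min. In each of these 4 pairs the 2 treatments did not overlap at 60 min, and the member with the larger loss in ET cells was the mRNA with the larger difference. LYS20 over LYS21, which is uncertain because of their shared sequence, was 0.343 and 0.343 in FK506 cells, against 0.369 and 0.333 in ET cells at 0 min, and 0.250 and 0.238 in FK506 cells, against 0.235 and 0.192 in ET cells at 60 min. SER3 over SER33 stayed between 0.365 and 0.689 in all libraries, and at 60 min it was 0.451 and 0.494 in FK506 cells, against 0.572 and 0.465 in ET cells. The ratios are descriptions and were not tested.

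**Figure D5:**
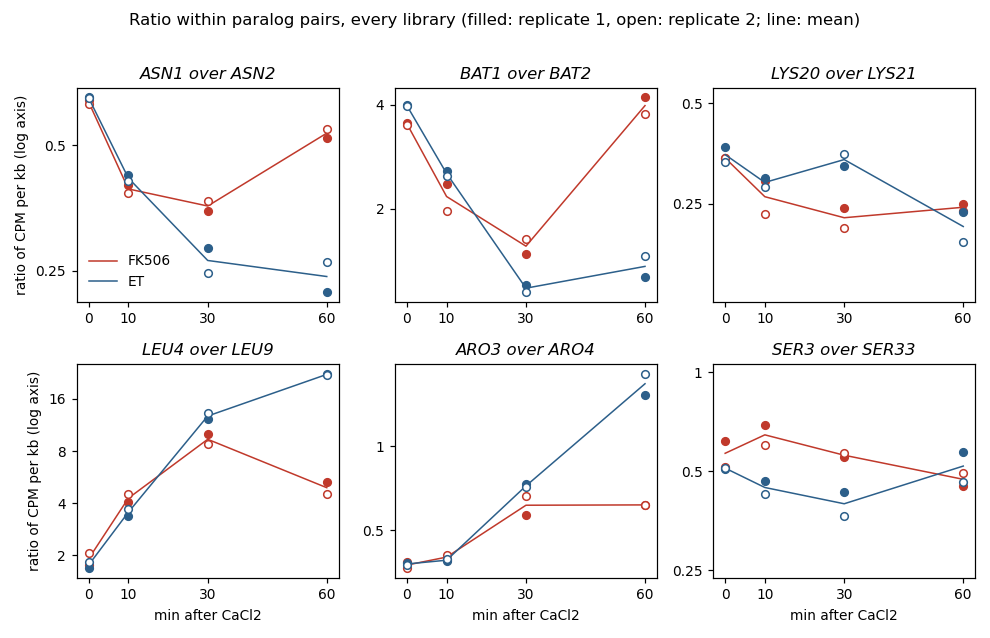
Ratio of normalised CPM per kb within each of the 6 paralog pairs (log axis) against min after CaCl2, in every library of FK506 and ET cells, with filled and open points for replicates 1 and 2 and lines through the means. LEU4 over LEU9 reached 4.52 to 5.31 in FK506 cells and 21.9 to 22.4 in ET cells at 60 min, and LYS20 over LYS21 is uncertain because the genes share sequence.

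Differences of both signs were found among genes with and without the Gcn4 motif. Of the 28 with TGACTCA, 19 had a positive and 2 a negative difference at 60 min, with a median of 0.59. Among the 24 without it (GCN4 left aside), 16 were positive and 5 negative, with a median of 0.46. Over all genes 27.9% were positive and 24% negative. LYS4, ILV2 and ARO2, with differences of 2.05, 1.67 and 1.30, held no TGACTCA in this window, while HIS5 and LYS1, with differences of -0.50 and -0.79, did. The 5 genes with the Leu3 motif shown above had 60 min differences from 0.57 (LEU1) to 2.07 (ILV5), with a median of 1.35. Their 60 min changes ran from -0.58 to 0.36 in FK506 cells and from -2.35 to -0.21 in ET cells. Branched-chain genes without the motif had 60 min differences from -0.36 (BAT2) to 2.73 (LEU9), and a part of the motif was not tested.

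Genes that govern Gcn4 itself were examined from a list of the known regulators. The 8 genes of the list for eIF2 and eIF2B, its exchange factor, all fell in ET cells at 60 min (34.7% of all genes were lower there). Over the 11 genes of GCN4 translational control, 8 were lower and none higher at 60 min in FK506 cells (15.7% and 13.1% of all genes). In ET cells 10 were lower and 1 higher (34.7% and 33.6% of all genes). The median changes were -0.27 in FK506 cells and -1.15 in ET cells. The 60 min difference was positive for 8 of them and negative for 1, with a median of 0.88, against 27.9% positive and 24% negative over all genes. SUI2, the alpha subunit of eIF2 that Gcn2 phosphorylates, measured 236 and 225 normalised CPM in FK506 cells, against 109 and 119.6 in ET cells at 60 min, with a difference of 1.20 (adjusted p = 3.42e-08, limma). GCD11, the gamma subunit, had 1.35 (adjusted p = 7.39e-09, limma), and GCN3, the alpha subunit of eIF2B, 1.29 (adjusted p = 5.08e-08, limma). GCN2, the kinase, went the other way and changed by 0.13 in FK506 cells (not past the test) and 0.32 in ET cells, with a difference of -0.19 (adjusted p = 0.0427, limma).

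Of the 6 genes for turnover of the Gcn4 protein, 1 had a positive and 2 a negative 60 min difference, against 27.9% and 24% of all genes. PCL5, a Pho85 cyclin that marks Gcn4 for degradation and is itself a Gcn4 target, measured 69.8 and 70.5 normalised CPM in FK506 cells, against 129 and 105 in ET cells at 30 min. It had a difference of -0.62 (adjusted p = 0.000467, limma) at 30 min and 0.52 (adjusted p = 0.00102, limma) at 60 min, the same change of sign as LYS20. SSN8, a cyclin of the Mediator kinase, had -0.66 (adjusted p = 0.000833, limma), but already differed at 0 min by 0.41. Among the 6 pathway activators 2 had a positive and 1 a negative 60 min difference (27.9% and 24% of all genes). BAS1 measured 39.6 and 46.9 normalised CPM in FK506 cells, against 16.4 and 21.9 in ET cells at 60 min and had the largest difference of this list, at 1.82 (adjusted p = 9.63e-08, limma), although it was already lower in FK506 cells at 0 min, at -0.64 (adjusted p = 0.00409, limma). PHO2, its partner, had -0.58 (adjusted p = 0.000126, limma), and LEU3 and LYS14 had 0.081 and -0.13, neither past the test.

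A further 15 amino acid synthesis genes outside the 53 gave 7 positive and 4 negative 60 min differences, with a median of 0.22, against 27.9% positive and 24% negative over all genes. SHM2, the serine hydroxymethyltransferase of the cytosol, had 1.56 (adjusted p = 1.66e-10, limma), PRO1, which starts proline synthesis, 1.40 (adjusted p = 2.09e-08, limma), and GLY1, the threonine aldolase that makes glycine, 1.19 (adjusted p = 1.17e-07, limma). On the negative side were GDH3, the other NADP-dependent glutamate dehydrogenase, at -0.77 (adjusted p = 0.000316, limma), and ALT1, alanine transaminase, at -0.51 (adjusted p = 0.00013, limma). ARG7, which acts in the ornithine cycle of arginine synthesis, had a 30 min difference of -0.97 (adjusted p = 1.67e-06, limma), in the same direction as ARG1.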

How the data were processed

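Total RNA was depleted of rRNA and sequenced as stranded, single-end libraries. According to the submitters' processing notes, reads were aligned with TopHat2 2.1.1 to the R64-1-1 (sacCer3) genome. The deposited values are raw counts of reads per gene, which the authors obtained with HTSeq according to the methods and with featureCounts of Subread 1.5.3 according to the processing notes. A counter mainly changes reads shared between genes. The table gave 1 column for each of the 16 libraries and no column was left unused.

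From the counts, genes were kept by filterByExpr (minimum count 10), scaled by TMM and fitted with limma 3.58.1 voom (edgeR 4.0.16, R 4.3.3) on 8 groups plus the replicate number, with the correlation within a time course estimated at -0.117. The fit kept 6206 of 7126 features, of which 329 had no counts. p-values were adjusted over all genes tested. Alternatives were edgeR's quasi-likelihood test, DESeq2 1.42.0, no replicate number, no correlation, RLE scaling, raw totals, no filter, no subtraction of 0 min and each library left out. The methods were tested on simulated data.

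Of the 53 genes, 1 counts in all totals but is not reported by name here. The genes and lists were chosen with earlier results of these data known. Values in every library are given for GCN4, for the highest and lowest 60 min difference in each pathway of 3 or more genes, and for 6 paralog pairs, and tests for these and for the extremes of each contrast. Other genes were added from the pathway counts after their values were seen. Replicates are biological according to the methods. Promoters are the 500 bases before the annotated start codon in R64, and figures were drawn with matplotlib 3.10.9.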

Additional observations from a re-analysis of the deposited data

Results flagged for a closer look

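The results listed here are those in which FK506 and ET cells changed unlike each other, with the difference of the changes itself past the limma test. At 30 min 26 of the 53 genes had such a difference (31.7% of all genes did) and at 60 min 43 did (51.9% of all genes). The genes named here are those reported whose changes from 0 min passed the test in opposite directions. At 30 min ARG1 was lower than at 0 min in FK506 cells and higher in ET cells, with a difference of -1.29 on the log2 scale. At 60 min ARG8 (0.97), LEU1 (0.57) and GDH1 (1.29) were higher than at 0 min in FK506 cells and lower in ET cells, and SER3 (-1.44) was lower in FK506 cells and higher in ET cells. Of the 10 changes behind these differences, 3 depended on the scaling or on single libraries: with raw library totals ARG1 in FK506 cells at 30 min (-0.16) did not pass and LEU1 in ET cells at 60 min turned to 0.027, and SER3 in FK506 cells at 60 min did not pass without replicate 1 at FK506 60 min (-0.33).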

How the results depend on the processing

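Of 185 named values (30 genes), all kept their sign and call with edgeR and without a correlation, and 178 did with DESeq2, 182 with RLE scaling, 176 without a filter and 162 with raw library totals. With raw totals 19 lost their call and 4 changed sign, namely GCN4 in FK506 cells at 60 min (0.087), ASN2 (0.056) and ARO3 (0.068) in ET cells at 30 min, and ARG1 in ET cells at 60 min (0.045). These totals move the median of all genes by up to 0.23. Without subtracting 0 min, 11 genes differed at 10 min (6.27% of all genes), where the difference of changes gave 0, and 33 at 30 min (10 higher, 23 lower) and 47 at 60 min, where it gave 26 (11 and 15) and 43. The calls of HIS1 at 30 min (0.12) and CPA1 at 60 min (0.14) were lost in that comparison.

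With each library left out in turn, the number of genes called ranged from 33 to 36, 40 to 44 and 26 to 29 in FK506 cells at 10, 30 and 60 min, and from 28 to 38, 43 to 48 and 45 to 49 in ET cells. For the difference it was 0 throughout at 10 min, 18 to 30 at 30 min and 40 to 45 at 60 min, and at 0 min 0 to 1, with 0 without replicate 1 at ET 0 min or replicate 2 at FK506 0 min. Of 310 called values 47 were lost without at least 1 library.

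The replicate number is a term of the model, and the correlations given here do not settle whether it paired the FK506 and ET samples. Deviations of FK506 and ET libraries with the same number and time correlated at 0.082 to 0.176, over 0.1 in 3 of 4 pairs, against -0.032 to 0.227 for other same-numbered pairs across treatments. Without the replicate block the counts were 34, 41 and 28 in FK506 cells, 34, 46 and 48 in ET cells, and 0, 24 and 42 for the difference at 10, 30 and 60 min, and 1 at 0 min.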
